A study of Homo sapiens with 4 samples.

Results

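The epidermal growth factor receptor (EGFR) family was examined as 10 genes, chosen by gene symbol alone out of 58740 in the gene table: the 4 receptors EGFR, ERBB2, ERBB3 and ERBB4, and the 6 ligands AREG, EREG, TGFA, HBEGF, BTC and EGF. All 10 symbols were found, each in 1 row. RNA had been sequenced from spheroids of 4 human colon lines, all established, 1 library each, grown in low-attachment wells. HCT116 and DLD-1 are colorectal carcinoma lines, SW620 was derived from a colon carcinoma's metastasis in a lymph node, and HCEC-1CT is a non-cancerous colon line immortalised by CDK4 and TERT. The labels give all 4 lines as epithelial and wild type, with the same medium, 10% serum and a culture of 7 days, and no agent was added. RNA of 1 library came from the pooled spheroids of 2 plates. With 1 library per line there is no replicate spread, so no test was possible. The 3 cancer lines are different lines, not replicates, and every difference below is between 2 libraries. Levels are FPKM, fragments scaled to transcript length and library size, which allows comparison between genes.

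Ligands of this family are made as membrane-bound precursors that metalloproteases cut from the cell surface. EGF, TGF-alpha, amphiregulin, epiregulin, betacellulin and HB-EGF bind EGFR, and epiregulin, betacellulin and HB-EGF also bind ERBB4. Neuregulins bind ERBB4, and some of them, NRG1 among them, also bind ERBB3. ERBB2 has no known ligand of its own and acts as the partner of the others, while ERBB3 has little kinase activity and signals through its partner to phosphoinositide 3-kinase. In the colon this signalling drives growth of the crypt epithelium, and EGFR is a target of antibodies given in colorectal cancer, where high AREG and EREG transcripts have been used as markers of response.

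The promoters of 3 ligand genes whose levels separate the lines are shown first. Each window runs from 250 bases before to 50 bases after a start site and comes from RefSeq on GRCh38.p14, read 5′ to 3′ on the gene's own strand. Capitals mark the CRE (TGACGTCA, the cyclic AMP response element), its short core (TGACG) and the TATA box (TATAAA). AREG and EREG are neighbours on chromosome 4, 56.4 kb apart on the same strand, and TGFA lies on chromosome 2 on the minus strand.
AREG, chr4:74444886-74445185, plus strand: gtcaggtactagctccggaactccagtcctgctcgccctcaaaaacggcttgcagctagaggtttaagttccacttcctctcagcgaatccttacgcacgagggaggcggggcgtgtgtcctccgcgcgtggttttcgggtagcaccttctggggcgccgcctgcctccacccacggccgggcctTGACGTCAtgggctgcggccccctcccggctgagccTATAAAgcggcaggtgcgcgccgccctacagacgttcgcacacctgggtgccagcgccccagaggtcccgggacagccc
EREG, chr4:74364895-74365194, plus strand: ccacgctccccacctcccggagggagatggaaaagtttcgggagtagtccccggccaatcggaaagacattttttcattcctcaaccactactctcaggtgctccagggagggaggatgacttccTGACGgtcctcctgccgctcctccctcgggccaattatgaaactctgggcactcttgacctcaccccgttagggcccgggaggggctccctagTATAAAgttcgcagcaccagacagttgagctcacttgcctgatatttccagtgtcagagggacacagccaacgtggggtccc
TGFA, first of 2 starts, chr2:70553777-70554076, minus strand: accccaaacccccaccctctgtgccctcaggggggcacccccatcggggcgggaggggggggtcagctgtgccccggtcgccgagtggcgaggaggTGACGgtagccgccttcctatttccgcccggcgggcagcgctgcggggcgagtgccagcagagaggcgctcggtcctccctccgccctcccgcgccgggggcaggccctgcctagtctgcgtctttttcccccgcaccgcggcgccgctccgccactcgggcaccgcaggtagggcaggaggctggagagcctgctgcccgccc
The AREG window holds a whole CRE at position -65 from the start and a TATA box at -29. The EREG window holds the CRE core at -125 and a TATA box at -32, and the TGFA window holds the core at -154, 4 GC boxes (GGGCGG) and no TATA box. TGFA-201, the most abundant TGFA transcript, starts 189 bases upstream of the RefSeq start used for this window. The core and all GC boxes but the one at -204 therefore lie downstream of the TGFA-201 start. On either strand, 1.85% of 35116 RefSeq promoter windows hold the whole CRE, 24.6% the core, which lies within the CRE, 11.5% the TATA box and 45.0% the GC box. Of the 9 members matched to that table, with 11 start sites, AREG was the only one with the whole CRE, and AREG, EREG and TGFA were the only ones with the core. The core was thus in 3 of 11 windows, near its share of all windows. The GC box was in 6 of 11 windows, those of AREG, TGFA, HBEGF, EGFR, BTC and ERBB4, so it was not particular to TGFA. These matches are letters in a window and were not tested for binding. ERBB3 was not among the matched genes.

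The libraries held about 25300000, 23300000, 28700000 and 29500000 fragments for HCT116, DLD-1, SW620 and HCEC-1CT, and every series of 4 values below keeps that order. Genes with 1 FPKM or more numbered 14418, 14654, 14084 and 13289. The label of HCEC-1CT as epithelial was set against 13 epithelial markers, whose summed level was 1674, 5752, 6826 and 7.98 FPKM. In HCEC-1CT 2 of the 13 reached 1 FPKM, and EPCAM, CDH1, KRT19, CDX2, ESRP1 and GRHL2 were listed at 0. The 14 fibroblast and pericyte markers summed to 37.6, 4.11, 253 and 1760 FPKM, and all 14 reached 1 FPKM in HCEC-1CT. These markers therefore differ between the cancer lines and HCEC-1CT along with every ErbB difference from HCEC-1CT given below, and their part in those differences was not tested.

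EGFR, the receptor of most ligands of the family (ENSG00000146648, chr7:55019021-55211628, plus strand, hg38), had 38.9 FPKM in HCT116, 17.1 in DLD-1, 0.650 in SW620 and 55.2 in HCEC-1CT. SW620 stood apart as the low line, with a level that corresponds to about 66.9 fragments, and the HCT116 and HCEC-1CT levels lay within 2-fold of each other. The log2 ratio over HCEC-1CT, with 1 added to each FPKM here and throughout, was -0.50, -1.64 and -5.09 for HCT116, DLD-1 and SW620. SW620 held 85.0-fold less EGFR than HCEC-1CT by the FPKM themselves. In bulk RNA, fewer cells with a transcript and less transcript per cell cannot be told apart.

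ERBB2, the partner receptor with no ligand (ENSG00000141736, chr17:39687914-39730523, plus strand), had 16.5 FPKM in HCT116, 93.0 in DLD-1, 20.6 in SW620 and 8.17 in HCEC-1CT. DLD-1 stood above all other lines, and the HCT116 level lay within 2-fold of both SW620 and HCEC-1CT. Log2 ratios over HCEC-1CT were 0.94, 3.36 and 1.24 for HCT116, DLD-1 and SW620.

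ERBB3, the neuregulin receptor (ENSG00000065361, chr12:56076799-56103505, plus strand), had 7.65 FPKM in HCT116, 88.5 in DLD-1, 38.4 in SW620 and 0.110 in HCEC-1CT. HCEC-1CT stood apart as the low line, at about 9.88 fragments, and no neighbours in the order of levels lay within 2-fold. Log2 ratios over HCEC-1CT were 2.96, 6.33 and 5.15 for HCT116, DLD-1 and SW620. ERBB4, the other neuregulin receptor (ENSG00000178568, chr2:211375717-212538841, minus strand), had 0.00974 FPKM in HCT116, was listed at 0 in DLD-1, and had 0.00345 in SW620 and 0.00836 in HCEC-1CT. These correspond to about 2.99, 0, 1.20 and 2.99 fragments, at or near the limit of 3 fragments that a count of 0 allows, and the lines could not be told apart for this gene.

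**Figure D1:**
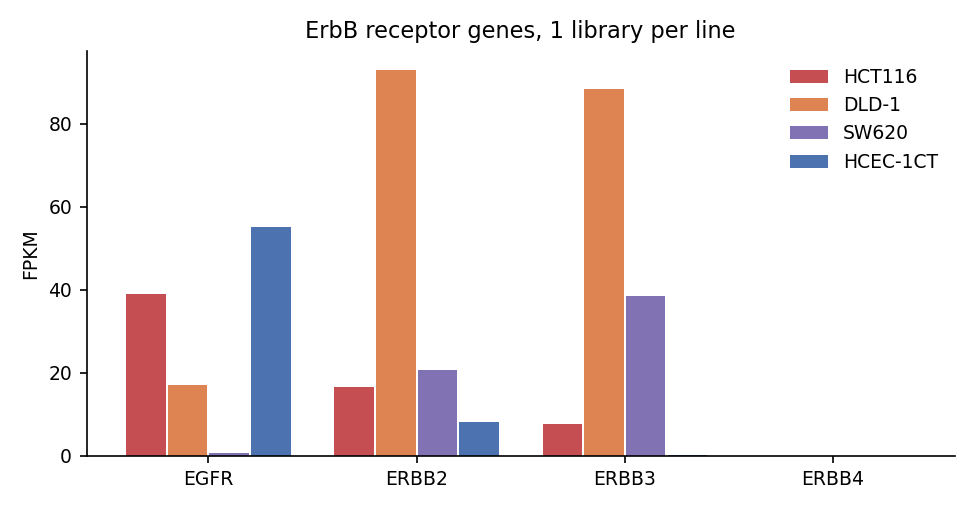
FPKM (vertical axis) of the 4 receptor genes (horizontal axis) in HCT116, DLD-1, SW620 and HCEC-1CT, 1 bar per library and no error bars because each line has 1 library. EGFR is lowest in SW620 at 0.650 FPKM, ERBB2 is highest in DLD-1 at 93.0, ERBB3 is lowest in HCEC-1CT at 0.110, and ERBB4 is near 0 in all 4.

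The receptor genes summed to 63.1, 198, 59.7 and 63.5 FPKM, so HCT116, SW620 and HCEC-1CT held about equal totals of deposited FPKM made of different genes. Scaling to equal library sums (a TPM scale) divides HCT116 by 1.37 and SW620 by 1.21 relative to HCEC-1CT. It would put both totals further below that of HCEC-1CT. EGFR made up 61.6% of the sum in HCT116, 8.59% in DLD-1, 1.09% in SW620 and 87.0% in HCEC-1CT. ERBB3 made up 12.1%, 44.6%, 64.4% and 0.173%, and ERBB2 26.2%, 46.8%, 34.5% and 12.9%. EGFR was therefore the largest component in HCT116 and HCEC-1CT, ERBB3 in SW620, and ERBB2 and ERBB3 were nearly equal in DLD-1. The ratio of EGFR to ERBB3 was 5.09, 0.193 and 0.0169 in the cancer lines, in the same order.

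AREG encodes amphiregulin, a ligand of EGFR (ENSG00000109321, chr4:74445134-74455009, plus strand). It had 265 FPKM in HCT116, 58.9 in DLD-1, 11.6 in SW620 and 15.3 in HCEC-1CT. HCT116 stood above all other lines, where AREG ranked 135 among 12001 protein-coding genes at 1 FPKM or more, and SW620 and HCEC-1CT lay within 2-fold of each other. Log2 ratios over HCEC-1CT were 4.03, 1.88 and -0.37 for HCT116, DLD-1 and SW620, and HCT116 held 17.3-fold more than HCEC-1CT by FPKM.

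EREG encodes epiregulin (ENSG00000124882, chr4:74365143-74388751, plus strand). It had 21.6 FPKM in HCT116, 97.8 in DLD-1, 4.17 in SW620 and 165 in HCEC-1CT. SW620 stood below all other lines, and DLD-1 and HCEC-1CT lay within 2-fold of each other. Log2 ratios over HCEC-1CT were -2.88, -0.75 and -5.01 for HCT116, DLD-1 and SW620, and EREG ranked 196 among 10965 such genes in HCEC-1CT.

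For the neighbours AREG and EREG, HCT116 and HCEC-1CT changed places in the order of levels, while SW620 had the lowest level of both and DLD-1 came next to the highest line for both. SW620 and HCEC-1CT for AREG, and DLD-1 and HCEC-1CT for EREG, lay within 2-fold, so those places are not called different. The ratio of AREG to EREG was 12.2 in HCT116, 0.603 in DLD-1, 2.78 in SW620 and 0.0924 in HCEC-1CT. AREG was the more abundant in HCT116 and SW620, and EREG in DLD-1 and HCEC-1CT.

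TGFA encodes transforming growth factor alpha, an EGFR ligand (ENSG00000163235, chr2:70447280-70554193, minus strand). It had 33.9 FPKM in HCT116, 55.0 in DLD-1, 37.4 in SW620, and was listed at 0 in HCEC-1CT. The 3 cancer lines lay within 2-fold of their neighbours in the order and HCEC-1CT stood apart. On the main transcript, 3 fragments in HCEC-1CT would have been 0.0236 FPKM. No fold is given against a library at 0.

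HBEGF encodes the heparin-binding ligand (ENSG00000113070, chr5:140332843-140346631, minus strand). It had 11.2 FPKM in HCT116, 4.38 in DLD-1, 11.1 in SW620 and 5.66 in HCEC-1CT. It was the member at 1 FPKM or more in all 4 libraries that varied least: each line lay within 2-fold of its neighbour in the order, and log2 ratios over HCEC-1CT were 0.88, -0.31 and 0.87. BTC encodes betacellulin (ENSG00000174808, chr4:74744759-74794686, minus strand). It had 0.839 FPKM in HCT116, 5.62 in DLD-1, 0.111 in SW620 and 0.0934 in HCEC-1CT, so that DLD-1 was the one line above 1 FPKM, with a log2 ratio of 2.60 over HCEC-1CT. EGF (ENSG00000138798, chr4:109912884-110012266, plus strand), the founding ligand of the family, had 0.936 FPKM in HCT116, 0.356 in DLD-1, 0.00713 in SW620, and was listed at 0 in HCEC-1CT. It stayed under 1 FPKM in every library.

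**Figure D2:**
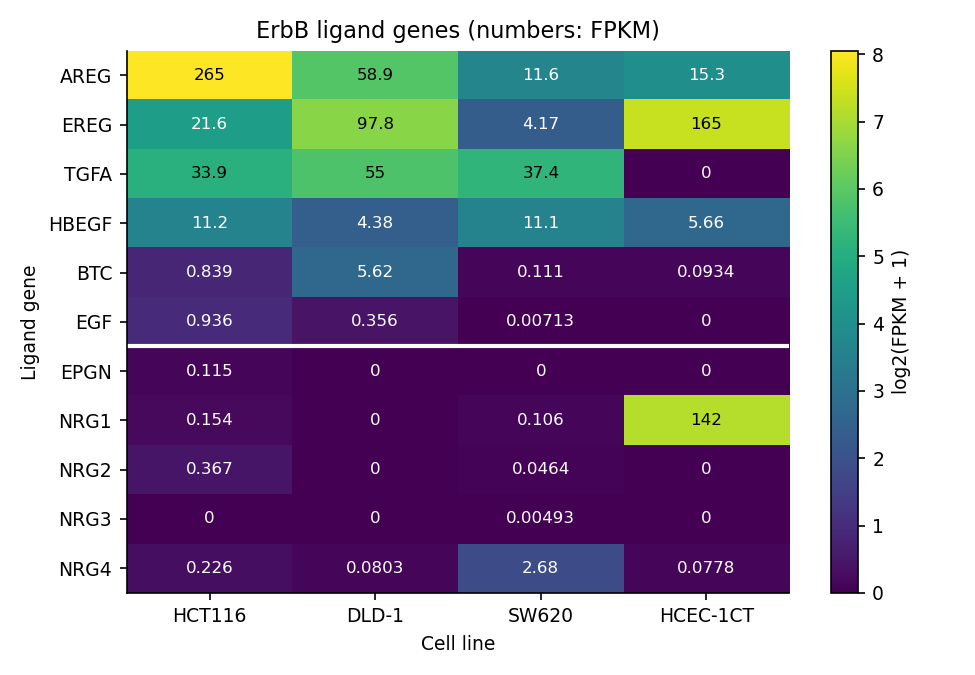
Levels of the 6 member ligands (above the white line) and the other 5 ErbB ligand genes in the 4 libraries, with colour for log2(FPKM + 1) and the FPKM printed in each cell. AREG is highest in HCT116 at 265 FPKM, EREG in HCEC-1CT at 165, and NRG1 reaches 142 in HCEC-1CT and no more than 0.154 in a cancer line.

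The ligands outside the 10 members were looked up to complete the family. NRG1, a neuregulin that binds ERBB3 and ERBB4, had 0.154 FPKM in HCT116, was listed at 0 in DLD-1, and had 0.106 in SW620 and 142 in HCEC-1CT, where it ranked 238. The line with the most NRG1 transcript was thus the line with the least ERBB3. NRG4, a ligand of ERBB4, had 0.226, 0.0803, 2.68 and 0.0778 FPKM, and EPGN, NRG2 and NRG3 stayed under 1 FPKM in all 4 libraries.

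All 11 ligand genes summed to 334, 222, 67.3 and 328 FPKM, lowest in SW620. AREG made up 79.2% of that sum in HCT116, 26.5% in DLD-1, 17.2% in SW620 and 4.65% in HCEC-1CT. EREG made up 6.48%, 44.0%, 6.20% and 50.3%, and TGFA 10.1%, 24.8%, 55.6% and 0%. The leading ligand transcript therefore differed: AREG in HCT116, EREG in DLD-1, TGFA in SW620, and EREG with NRG1, at 43.2%, in HCEC-1CT.

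**Figure D3:**
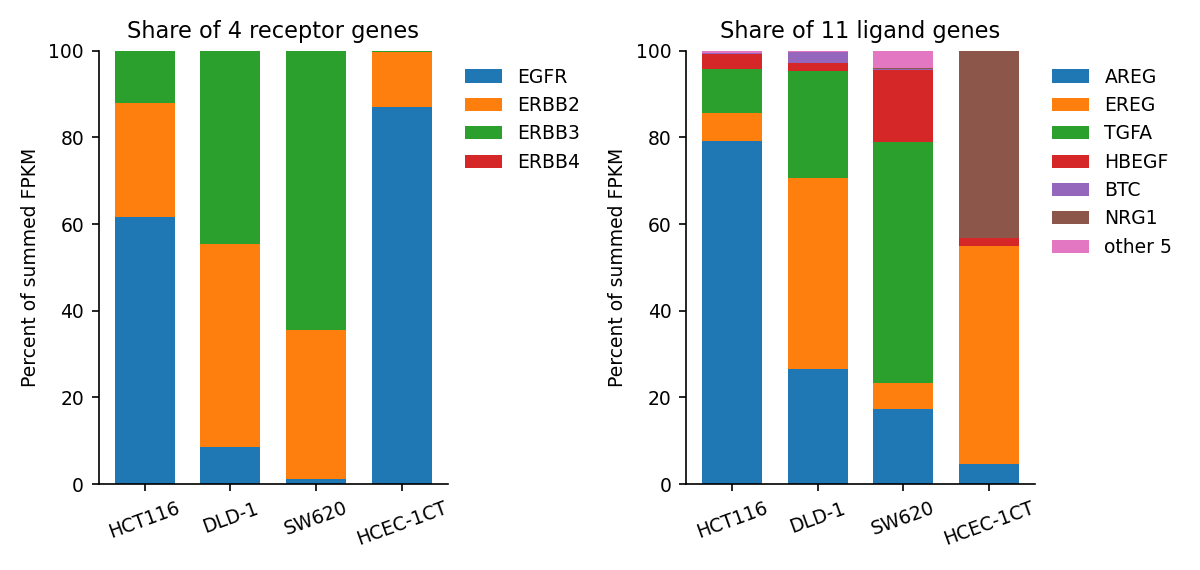
Percent of the summed FPKM (vertical axis) taken by each of the 4 receptor genes (left) and of the 11 ligand genes (right) in the 4 libraries, as stacked bars. EGFR takes 61.6%, 8.59%, 1.09% and 87.0% of the receptor sum, and a different ligand mix leads in each line, with AREG at 79.2% in HCT116 and TGFA at 55.6% in SW620.

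The members were next counted against HCEC-1CT, calling a gene higher or lower at 4-fold or more among genes with at least 1 FPKM in 1 of the 2 libraries. In HCT116, 3 of the 7 members at that level were higher (ERBB3, AREG and TGFA), against 10.3% of all genes tested, and 1 was lower (EREG), against 5.73%. In DLD-1, 4 of 8 were higher (ERBB2, ERBB3, TGFA and BTC), against 10.4% of all genes, and 0 were lower, against 6.3%. In SW620, 2 of 7 were higher (ERBB3 and TGFA), against 10.3%, and 2 were lower (EGFR and EREG), against 6.36%. A member listed at or near 0 in 1 library reached the count through the other library, so these counts lean towards differences, and the 3 comparisons share the HCEC-1CT library. ERBB3 and TGFA were the members higher in all 3 cancer lines, and none was lower in all 3. The median log2 ratio of all genes tested was 0.39, 0.43 and 0.29 for HCT116, DLD-1 and SW620, and the members' ratios include that shift. Relative to it, the EGFR ratio of DLD-1 passed 4-fold, at -2.04 with median-ratio scaling. That ratio stayed within 4-fold on a TPM scale, at -1.73, and with scaling to the protein-coding total, at -1.71.

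**Figure D4:**
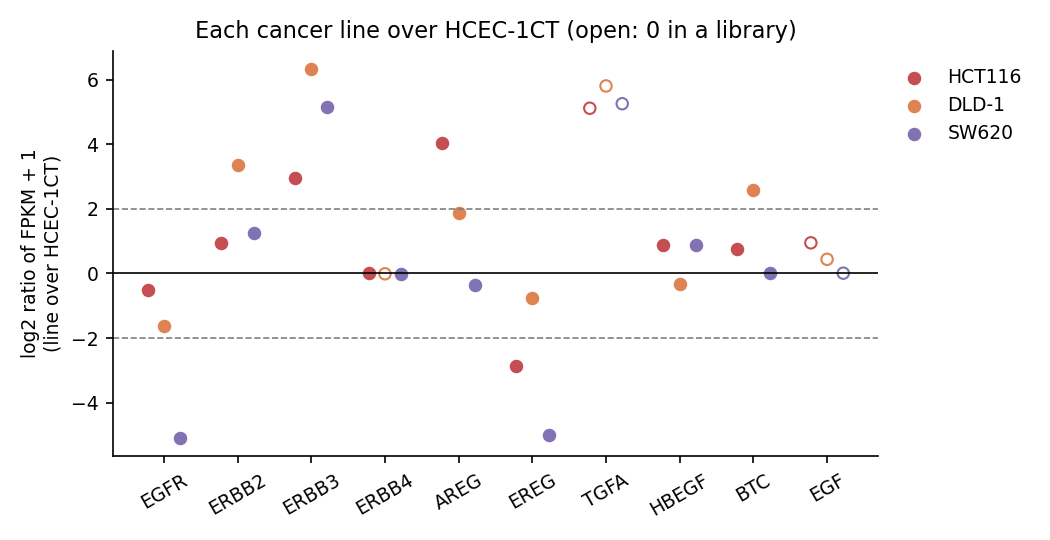
Log2 ratio of FPKM + 1 over HCEC-1CT (vertical axis) for the 10 members (horizontal axis), 1 point per cancer line, with dashed lines at 4-fold and open points where a library is listed at 0. ERBB3 and TGFA lie above the upper line in all 3 cancer lines, EGFR lies below the lower line in SW620 at -5.09, and EREG in HCT116 and SW620 at -2.88 and -5.01.

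The cancer lines were then compared with each other by the same rule. HCT116 was higher than DLD-1 for 1 of 8 members (AREG, log2 ratio 2.15), against 5.51% of all genes, and lower for 3 (ERBB2 at -2.42, ERBB3 at -3.37 and EREG at -2.13), against 5.04%. The AREG call did not hold on a TPM scale. HCT116 was higher than SW620 for 3 of 7 members (EGFR at 4.60, AREG at 4.40 and EREG at 2.13), against 3.95%, and lower for ERBB3 (-2.19), against 4.37%. The count of 3 became 2 on a TPM scale and with a pseudocount of 5, where EREG no longer passed. DLD-1 was higher than SW620 for 5 of 8 members (EGFR at 3.45, ERBB2 at 2.12, AREG at 2.25, EREG at 4.26 and BTC at 2.57), against 4.82%, and lower for 0, against 5.35%. With a pseudocount of 5 that count of 5 became 1. AREG set HCT116 apart at 4-fold above each of the other 3 lines, as did 1.27% of 18637 genes, and ERBB2 set DLD-1 apart in the same way, against 1.56%. EGFR and EREG lay 4-fold below each other line in SW620, as did 0.376% of genes, and ERBB3 and TGFA did in HCEC-1CT, as did 2.68%. On a TPM scale AREG no longer set HCT116 apart in this way, and EREG no longer set SW620 apart.

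The transcript table splits each gene's FPKM over annotated transcripts, an estimate made by the authors' software from reads that transcripts share. EGFR-201, of 1210 codons, made up 70.4% of EGFR in HCT116, 90.4% in DLD-1 and 71.0% in HCEC-1CT. EGFR-203 and EGFR-204, of 705 and 405 codons, are shorter transcripts of the kind known to encode secreted forms of the extracellular domain. Together they held 7.21 FPKM in HCT116, 0.563 in DLD-1, 0 in SW620 and 12.6 in HCEC-1CT, or 18.5%, 3.30%, 0% and 22.8% of the gene. In HCT116 nearly all of it was EGFR-204, at 7.13 FPKM, while HCEC-1CT held 6.87 of EGFR-203 and 5.71 of EGFR-204. In SW620 the full-length transcript had 0.0814 FPKM of the gene's 0.650, and EGFR-207, of 1091 codons, had 0.362.

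ERBB2 was spread over several transcripts, and the most abundant one in each line was 1 of 2 that share nearly all their bases: the coding ERBB2-201, of 1255 codons, and ERBB2-206, annotated for nonsense-mediated decay, with 98.6% of its 4523 bases inside ERBB2-201. ERBB2-201 had 9.87 FPKM in HCT116, 3.32 in DLD-1, 1.34 in SW620 and 1.16 in HCEC-1CT, whereas ERBB2-206 had 0.0681, 40.5, 8.67 and 2.68. Of this pair, HCT116 was thus assigned mostly the coding form and the other 3 lines mostly the decay form. Their sum was 60.1%, 47.1%, 48.6% and 47.0% of the gene, and since 63 and 85 bases distinguish them, the split is uncertain. ERBB2 also shares its locus with PGAP3 and MIEN1 on the opposite strand, and the sources used here do not say whether strand was kept. PGAP3 had 0.850, 18.3, 2.20 and 4.51 FPKM and MIEN1 had 15.5, 8.29, 23.8 and 6.98, so PGAP3 was highest in DLD-1 as ERBB2 was, and MIEN1 was not. The ERBB2 sum includes an entry outside the annotation, beyond the 3′ end of ERBB2-201. It had 2.87, 1.66, 3.77 and 0.868 FPKM, or 17.4%, 1.78%, 18.3% and 10.6% of the gene. That entry put the lines in the same order as MIEN1, and a part of MIEN1 reads in it was not tested.

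ERBB3 was spread over many transcripts. The coding ERBB3-201, of 1342 codons, had 0.885 FPKM in HCT116, 24.3 in DLD-1, 13.5 in SW620 and 0.0454 in HCEC-1CT, which is 11.6%, 27.4%, 35.0% and 41.4% of the gene. The HCEC-1CT share rests on about 9.88 fragments of the gene. ERBB3-217, annotated for nonsense-mediated decay, made up 8.98%, 16.0%, 26.2% and 0%. Since 95.8% of its bases lie inside ERBB3-201, the split between them is uncertain. The most abundant form in HCT116 was ERBB3-213, of 462 codons, at 17.9% of the gene, and transcripts annotated with a retained intron or as processed made up 36.1% there, against 16.7% in DLD-1 and 14.0% in SW620. As assigned, the full-length coding form differed more between HCT116 and DLD-1 than the gene sum did. For TGFA the main TGFA-201, of 160 codons, made up 79.8%, 88.7% and 87.9% in HCT116, DLD-1 and SW620.

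The ligand genes AREG, EREG and HBEGF were nearly all in their main coding transcript, except in DLD-1. AREG-201 made up 95.0% of the gene in HCT116, 52.3% in DLD-1, 93.3% in SW620 and 91.0% in HCEC-1CT, and the retained-intron AREG-203 with 1 entry outside the annotation made up 4.90%, 46.9%, 6.70% and 8.98%. HBEGF-201 made up 94.6%, 60.4%, 93.5% and 92.4%, and EREG-201 96.6%, 83.5%, 97.8% and 95.3%. AREG-201 itself had 251 FPKM in HCT116, 30.8 in DLD-1, 10.8 in SW620 and 13.9 in HCEC-1CT, so the coding level of DLD-1 lay nearer to those of SW620 and HCEC-1CT than the gene sum did. Over 5090 protein-coding genes with such transcripts and at least 5 FPKM in all libraries, the median share of retained-intron and processed transcripts was 9.82% in HCT116, 15.8% in DLD-1, 9.48% in SW620 and 14.2% in HCEC-1CT. DLD-1 was highest there too, by a smaller margin, and the part of that in the AREG and HBEGF splits was not tested.

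**Figure D5:**
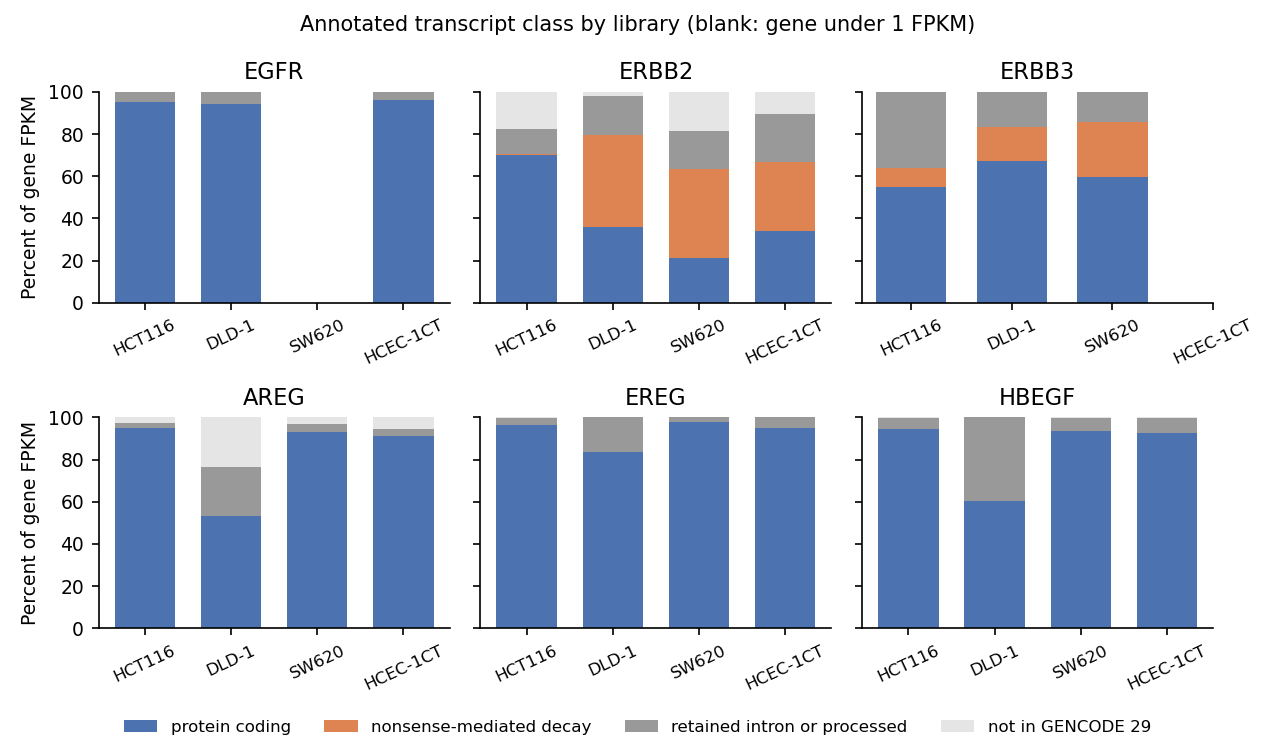
Percent of gene FPKM (vertical axis) by annotated transcript class for 6 members in the 4 libraries, left blank where the gene is under 1 FPKM. The coding share of AREG is 53.1% in DLD-1 and 91.0% or more in the other 3 libraries, and the decay class of ERBB2 is 0.412% in HCT116 and 43.5% in DLD-1.

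The genes around the receptors were read from lists, whose counts stand against the shares of all genes tested: 10.3% higher and 5.73% lower in HCT116, 10.4% and 6.3% in DLD-1, and 10.3% and 6.36% in SW620. With 8 to 14 genes a list, a count of 1 lies near those shares. Of 8 genes for ligand shedding, 1 was higher and 2 lower in HCT116 than in HCEC-1CT, 1 and 1 in DLD-1, and 0 and 1 in SW620, with median log2 ratios of -0.55, -0.28 and -0.14 beside 0.39, 0.43 and 0.29 over all genes. ADAM17, the protease that releases amphiregulin, epiregulin and TGF-alpha, had 22.5 FPKM in HCT116, 18.2 in DLD-1, 18.2 in SW620 and 37.7 in HCEC-1CT. It passed 4-fold in no line. ADAM12, a protease reported to cut HB-EGF, was listed at 0 in the 3 cancer lines and had 13.7 FPKM in HCEC-1CT, the shedding gene lower in all 3. RHBDF1, an iRhom that carries ADAM17 to the surface, had 9.03 FPKM in HCT116, 27.8 in DLD-1, 35.4 in SW620 and 43.1 in HCEC-1CT.

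Of 11 inhibitors and ubiquitin ligases of the family, 1 was higher and 1 lower in HCT116 and in DLD-1, and 0 were higher and 2 lower in SW620, where 10 were tested; median log2 ratios were 0.00, -0.05 and -0.35. LRIG1, which promotes breakdown of ErbB receptors, was lower in all 3 cancer lines, with 2.01 FPKM in HCT116, 0.0267 in DLD-1, 4.60 in SW620 and 22.9 in HCEC-1CT. CBLC, a ubiquitin ligase of epithelia, had 20.3 FPKM in HCT116, 10.0 in DLD-1, 0.244 in SW620, and was listed at 0 in HCEC-1CT. ERRFI1, which blocks the EGFR kinase, had 181, 238, 180.0 and 245 FPKM and ranked between 139 and 223 in every library.

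Of 14 adaptors and effectors that bind the receptors, 2 were higher and 1 lower in HCT116, 1 and 0 in DLD-1, and 3 and 0 in SW620, with median log2 ratios of 0.38, 0.66 and 0.35. GRB7, an adaptor of ERBB2 whose gene lies 7.4 kb from it, was higher in all 3, with 18.0 FPKM in HCT116, 24.8 in DLD-1, 62.3 in SW620 and 0.0594 in HCEC-1CT. GRB7 was highest in SW620, where ERBB2 was not, and STARD3, on the other side of ERBB2, had 24.3, 16.3, 18.4 and 9.42 FPKM. Of the 4 neighbours of ERBB2 with at least 1 FPKM, GRB7 was the one past 4-fold in each line. The calls of SOS2 in HCT116 and SW620 are uncertain, since 99.2% and 97.2% of its FPKM there came from an entry outside the annotation that overlaps the abundant 7SL RNA loci. Without SOS2, 1 gene was higher in HCT116 and 2 were higher in SW620, near the shares of all genes. SOS2-201 itself had 3.71, 8.20, 9.78 and 10.4 FPKM.

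Of 14 feedback and output genes of MAP kinase signalling, 2 were higher and 1 lower in HCT116, 0 and 2 in DLD-1, and 2 and 1 in SW620, and none passed in the same direction in all 3. The median log2 ratios were -0.39, -0.88 and 0.46. These counts lie within 2 genes of the shares of all genes. DUSP4, a phosphatase of MAP kinases, had 90.6 FPKM in HCT116, 2.68 in DLD-1, 75.0 in SW620 and 1.57 in HCEC-1CT, and DUSP5, another, had 337, 48.9, 287 and 29.1 FPKM. Both were high in HCT116 and SW620, and their relation to receptor and ligand levels was not tested. Not all genes of the list had that order: DUSP6 had 35.4, 62.7, 25.3 and 37.5 FPKM. SPRY2 had 5.86, 16.3, 47.7 and 33.0 FPKM. Of 8 genes around AREG and EREG, 1 was higher and 3 lower of 5 tested in HCT116, 3 and 3 of 7 in DLD-1, and 1 and 3 of 5 in SW620, with medians of -10.36, 0.62 and -8.05. The 3 higher in DLD-1 were RASSF6, PARM1 and BTC, which is itself a member and was already counted above. The chemokine genes CXCL8, CXCL1 and CXCL5 were lower in all 3 cancer lines; CXCL8 had 3.71 FPKM in HCT116, 2.32 in DLD-1, 13.3 in SW620 and 10944 in HCEC-1CT. PARM1, further along the same arm, had 13.8, 92.7, 0.139 and 0.513 FPKM.

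Genes with the profile nearest to each member were found over the 4 libraries, by the root mean square difference of log2(FPKM + 1) after centring each gene on its mean. With 4 points this is a description of few values. The nearest to EGFR were IFITM1 (0.42), ZNF655 (0.43) and CTSL (0.45). ERBB2 was near to PCCA (0.11) and FUT2 (0.12), and ERBB3 to FXYD3 (0.15), SORL1 (0.25) and CLIC3 (0.26). AREG had MAOB (0.29) and TOX2 (0.29) as nearest, EREG had CYP1B1 (0.18), and TGFA had LLGL2 (0.24), TMC6 (0.28) and ATP1B1 (0.30). BTC was nearest to AC004080.2 (0.05), ILDR1 (0.12) and ACSL6 (0.12).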

How the data were processed

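RNA was sequenced from spheroids of 4 cell lines, 1 library each. The authors deposited FPKM per gene and per transcript; FastQC and HISAT2 on hg38 were used, per the submitters' processing notes, without versions. The program that gave FPKM, the RNA selection and strandedness were not stated in those sources. Of 58740 gene IDs, 58275 matched GENCODE 29 (GRCh38), the source of gene types, transcript classes and lengths. Both tables hold 1 further value column that fits no labelled sample, and it was left out.

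Members, gene lists and rules were chosen with earlier results of these data known. Ratios are log2 ratios after adding a pseudocount of 1 to each FPKM, so changes of low genes are understated. A gene was called at 4-fold with at least 1 FPKM in 1 of the 2 libraries, and no p-value was computed. Depth was read from steps of FPKM multiplied by length in single-transcript genes, within a tolerance of 1%, and fragments per gene are approximate; limits from fragments cover counting error only. Named were all members, list genes past 4-fold in all 3 cancer lines with up to 4 others of large ratio, the main transcripts and up to 3 genes of nearest profile; 1 of these is not reported here. Genes looked at after their values were seen were ADAM17, ERRFI1, STARD3, DUSP6, SPRY2 and SOS2-201, and EGFR-203, EGFR-204 and EGFR-207. Sequences came from RefSeq promoter windows on GRCh38.p14. The counting script was tested on simulated data. Python 3.11.15, numpy 2.4.6, pandas 2.3.3 and matplotlib 3.10.9 were used. The 9 alternatives were 2 pseudocounts, 3 scalings, a 2-fold threshold, the main transcript, and 2 filters.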

Additional observations from a re-analysis of the deposited data

How the results depend on the processing

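Of 108 counts of members under 9 alternatives, 100 stayed within 1.5 times the reported count, and none of the 12 called ratios over HCEC-1CT reversed. Of those ratios, 12 were kept under each alternative except a pseudocount of 5, which kept 10 (ERBB3 in HCT116 at 1.31 and BTC in DLD-1 at 1.06 were lost), and the main transcript alone, which kept 11 (ERBB3 in HCT116 at 0.85 was lost). A 2-fold threshold cannot lose a call made at 4-fold. Dropping the filter cannot change a call, since a call needs at least 3 FPKM. The filter at 5 FPKM could not either, because each called member exceeded it in 1 of the 2 libraries. Calls and counts kept under these settings are therefore no support. Members lower in DLD-1 than in HCEC-1CT became 1 with median-ratio scaling (EGFR) and 1 at 2-fold. Members higher in HCT116 than in DLD-1 became 0 on a TPM scale and 3 at 2-fold. Members lower in HCT116 than in SW620 became 0 with a pseudocount of 5 and 2 with the main transcript alone. Members higher in DLD-1 than in SW620 became 1 with a pseudocount of 5, and members lower there became 1 at 2-fold. ERBB2 in HCT116, not a called ratio, changed sign: it was -1.78 over HCEC-1CT on the main transcript ERBB2-206, against 0.94 for the gene. Apart from what each alternative changes by construction, the causes were not tested. Median-ratio scaling moved ratios over HCEC-1CT by -0.38, -0.41 and -0.29 for HCT116, DLD-1 and SW620, and the TPM scale by -0.46, -0.09 and -0.28. No paired analysis was possible because each line has 1 library. Depth limits ERBB4 in all lines, EGF and BTC in SW620 and HCEC-1CT, and ERBB3 in HCEC-1CT. The HCEC-1CT levels of ERBB3 and BTC correspond to about 9.88 and 7.75 fragments. The size of the ERBB3 ratios depends on the pseudocount. For HCT116 over HCEC-1CT the ERBB3 ratio was 2.96 as reported, 5.21 with a pseudocount of 0.1 and 1.31 with 5. Having no replicate library limits every comparison.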
